A study of Mus musculus with 14 samples.

Results

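Cadherins are calcium-dependent adhesion proteins of the cell surface, and 78 of their genes were measured here among 34797 gene names on a mouse array. The members were all non-control probes whose gene name was a numbered cadherin (Cdh), desmoglein (Dsg), desmocollin (Dsc) or protocadherin (Pcdh), with the endothelial cadherin gene Cdh5 set aside as context. They comprised 22 Cdh genes, 6 desmogleins, 3 desmocollins, 12 non-clustered protocadherins, and 7 alpha, 22 beta and 6 gamma clustered protocadherins. Each gene was represented by the probe with the highest mean signal over the 14 arrays, so brightness chose the probe and is no finding.

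The RNA came from lymphatic endothelial cells of lymph nodes of C57Bl/6 mice, and no treatment or engineered allele is named for any group. Laser-capture microdissection (LCM) gave 5 subcapsular and 5 medullary samples of 50 cells each, taken as CD31-labelled cells from frozen inguinal, axillary and brachial nodes that were also stained for F4/80. Fluorescence sorting (FACS) gave 2 subcapsular and 2 medullary samples of 1200 cells each from digested nodes of more body sites. The sort used a lineage cocktail together with antibodies to podoplanin and to CD73, and 7-AAD to drop dead cells. Which CD73 signal defined which sinus is not given in the sources used here. The subcapsular sinus receives lymph as it enters a node, and the medullary sinus lies on the side where lymph leaves. The labels call the samples biological replicates but do not tie them to animals, so p-values measure the spread between these samples.

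Classical cadherins such as Cdh1 (E-cadherin) and Cdh2 (N-cadherin) bind the same protein on the neighbouring cell and are linked to actin through catenins. Desmogleins and desmocollins build desmosomes, the junctions that anchor keratin filaments and are best known from epidermis and other epithelia. Clustered protocadherins are encoded in tandem arrays of variable exons and are best known for giving neurons distinct surface identities. Endothelial cells rely mainly on Cdh5 (VE-cadherin), and Pcdh12 is known as a protocadherin of endothelium.

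The identity of a member rests on its probe. The opening 30 of the 60 bases are given for 7 members that the comparisons turn on, written 5′ to 3′ in the transcript's sense, with the mm9 position of those bases. Both Cdh13 probes are shown because their values differ below.
Cdh1 (chr8:109193812-109193841, plus strand): acattctaacgggaaaaaggagacaagacc
Cdh3 (chr8:109079933-109079962, plus strand): tattttccctgttatgtgctgtagatggag
Cdh13, representative probe (chr8:121837969-121837998, plus strand): acatcacggacctcaaggtgcaggtgtgct
Cdh13, other probe (chr8:121492114-121492143, plus strand): catcagcatggcagccctgaatatgctaca
Cdh15 (chr8:125391031-125391060, plus strand): ggcccatccttggctccatggcagataaac
Cdh22 (chr2:164937087-164937116, minus strand): aacagcacctacctcgaagatttgagagga
Pcdh8 (chr14:80166758-80166787, minus strand): aatgtgttggaattgctcattgggatttta
Pcdh10 (chr3:45186832-45186861, plus strand): gtcactcttggcatctccttattttgagtc
The longest run of bases shared by the representative probes of different members was 14 (Cdh9 with Cdh10 and with Cdh6).

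Values are log2 signals over the 75th percentile of the array, and a probe counts as above background where the scanner software calls it well above background. Between 50.78% and 78.98% of all probes were above background on an array, and no probe was saturated. All FACS arrays and medullary LCM replicates 4 and 5 were on slide 2 and the other LCM arrays on slide 1, so isolation and slide are largely confounded. The subcapsular FACS arrays were on row 1 and the medullary FACS arrays on row 2, so there the row and the sinus cannot be told apart. On slide 1, subcapsular LCM replicates 1 to 4 were on row 1 and medullary LCM replicates 1 to 3 on row 2. Slide 2 held no subcapsular LCM array, so in LCM the sinus is partly confounded with row and slide. Of the lymphatic genes, Prox1 and Pecam1 were above background on 14 of 14 arrays. Lyve1 was above background on 7 arrays and on neither medullary FACS array, and Flt4 was below it on both subcapsular FACS arrays.

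Members were detected less widely than genes in general. The median member was above background on 7 of 14 arrays and the median gene on 12. Cdh23, a cadherin of hair cell tip links, and Pcdhb10 and Pcdhb19 were above background on no array (2.03% of all genes were), and 18 members on all 14 (39.5% of all genes). A value below background is only a bound, and because the samples are bulk RNA, fewer cells of a type and less RNA per cell cannot be told apart. On the subcapsular LCM arrays 39.7% to 52.6% of members were above background, and on the medullary LCM arrays 56.4% to 69.2%, so the groups did not overlap. All genes showed the same order with a small overlap, at 57.5% to 74.1% and 73% to 79.4%. In FACS the 2 subcapsular arrays had 57.7% and 42.3% of members above background and the 2 medullary arrays 80.8% and 59%. The shares of all genes overlapped there, at 81.3% and 71.4% on the subcapsular and 82.6% and 73.9% on the medullary arrays.

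**Figure D1:**
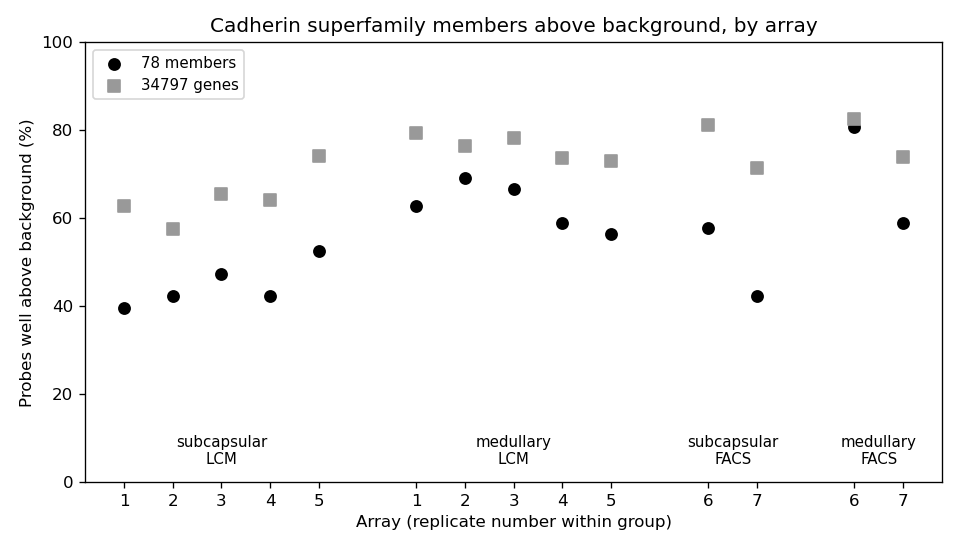
Share of probes well above background on each array (y axis, percent) for the 78 members (circles) and all 34797 genes (squares), with arrays grouped by sinus and isolation on the x axis. Members lay below all genes on every array, and nearest to them on medullary FACS replicate 6 (80.8% against 82.6%).

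The subfamilies differed in how often they were seen. Beta protocadherins were above background on a median of 3 arrays, alpha protocadherins on 9, Cdh genes on 11, desmocollins on 11 and gamma protocadherins on 14. Beta probes also had a median GC content of 35.8%, against 43.3% for all genes and 45% for gamma probes, and the part of GC content in detection was not tested. The filter admitted 51 members to the LCM comparison (78.7% of all genes), 50 to the FACS comparison (79.5%) and 59 to the comparisons over 14 arrays (85.3%). Of the 19 members that were too dim to enter any comparison, 13 were beta protocadherins, 4 were Cdh genes (Cdh9, Cdh12, Cdh19 and Cdh23), and Dsg1a and Pcdh19 completed the set.

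**Figure D2:**
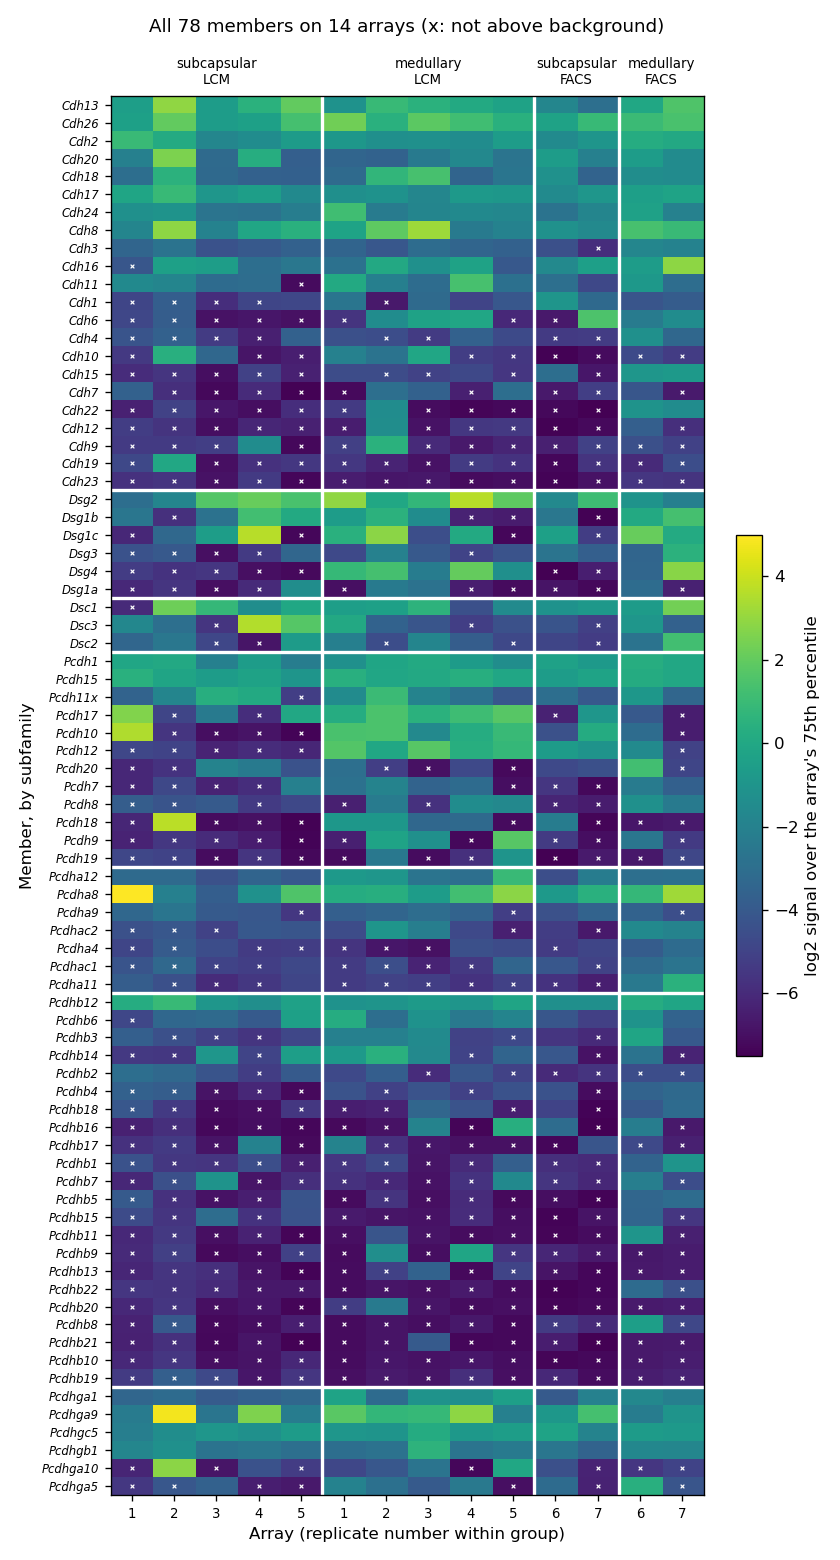
Level of all 78 members (rows, by subfamily and within it by number of arrays above background) on the 14 arrays (columns, by group), as log2 signal over the array's 75th percentile. A white cross marks a probe not above background; crosses fill most of the beta protocadherin block, where Pcdhb12 (14 arrays) and Pcdhb6 (13 arrays) are the exceptions.

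Dissected cells were compared to ask which members differ between the sinuses in tissue sections. Of the 51 members that entered, 2 rose in the medullary sinus and none fell (limma, Benjamini-Hochberg over 27380 genes; 0.168% of all genes tested rose and 0.0073% fell). They were Pcdh12 and the hair follicle desmoglein Dsg4. At an unadjusted p under 0.05, 7 members were higher and 0 lower, where 6.88% and 4.81% of all genes were.

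Pcdh12, the endothelial protocadherin, read −4.82, −5, −6.24, −5.9 and −6.18 in the 5 subcapsular LCM samples. It read 1.66, −0.05, 1.73, 0.33 and 0.84 in the 5 medullary ones. All subcapsular values were below background and all medullary values above it, and the groups did not overlap. The difference was 6.53 ± 0.56 (SE, limma adjusted p = 0.00386), or at least 55.6-fold when each subcapsular array is given its dimmest signal that still counts as above background. Slide 2 held no subcapsular LCM array, so slide as a block and slide 1 alone give the same estimate and are not separate checks. It was 6.74, called in both fits, and with row as a block the difference was 6.52 and called. With normexp background correction it was 3.02 and missed the threshold (limma adjusted p = 0.0546). The probe lies on mm9 chromosome 18 from 38426868 to 38426927 (NM_017378).

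Dsg4, a desmosomal cadherin of the hair follicle, read −5.3, −5.67, −5.54, −6.98 and −7.2 in the subcapsular LCM samples. The medullary LCM samples read 0.85, 1.31, −2.25, 2.06 and −1.28. The groups did not overlap, with 0 of 5 subcapsular and 5 of 5 medullary values above background. The difference was 6.28 ± 0.87 (SE, limma adjusted p = 0.0253), or at least 32.8-fold. The second Dsg4 probe pointed the other way, at −0.98 in LCM and −0.37 in FACS, while the representative probe was at 6.67 in FACS (adjusted p = 0.148). The call ended without subcapsular replicate 4 (adjusted p = 0.0529), medullary replicate 1 (0.0522) or medullary replicate 2 (0.0665), with row as a block (0.0554), and with normexp, quantile normalization, the deposited values, the mean of probes and all 14 arrays in 1 fit (0.0791 to 0.202). The representative probe lies on mm9 chromosome 18 from 20630260 to 20630319 (NM_181564).

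The other members with the lowest p values in LCM were protocadherins. Pcdhga1, a gamma protocadherin, differed by 2.25 ± 0.6 (SE, limma adjusted p = 0.212), and Pcdha12, an alpha protocadherin, by 2.39 ± 0.76 (SE, adjusted p = 0.29). Both were above background on all 14 arrays, and in both every medullary LCM sample lay above every subcapsular one, by as little as −3.11 against −3.13 for Pcdhga1. Pcdh10 read 3.52 in subcapsular replicate 1 and −5.58 to −7.39 in the other 4, against −1.63 to 1.45 in the medullary samples. Its difference of 5.16 was not called (adjusted p = 0.35), and without subcapsular replicate 1 it was 7.21 and called (adjusted p = 0.0121).

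A gene entered when either sinus showed it, which favours a positive sign for genes let in by the medullary arrays alone. This was so for 19 of the 51 members, Pcdh12 and Dsg4 among them, and all 19 were positive, as were 90% of all genes that entered that way. Of the 31 members that both sinuses admitted, 22 were positive with a median of 0.32, where 45.6% of such genes were positive with a median of −0.11. Over all 51 members, the number positive was 41, and it was 29 with normexp and 30 after quantile normalization, so it depends on the scaling. In 4 members every medullary array lay above every subcapsular array and in none below, where 1.03% and 2.06% of all genes did.

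Markers of other cells moved with the same contrast. Of 10 genes of blood endothelium and high endothelial venules, 8 were positive in LCM with a median of 3.36, and Fut7 and Chst4 were called. Their summed level was 5.57 to 7.66 on the subcapsular and 7.72 to 8.35 on the medullary arrays, and Selp was above background on no subcapsular array. The 8 macrophage markers ran the other way, with 1 positive and a summed level of 8.28 to 10.37 on the subcapsular and 6.21 to 7.4 on the medullary arrays. The part of either list in the Pcdh12 and Dsg4 differences was not tested.

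**Figure D3:**
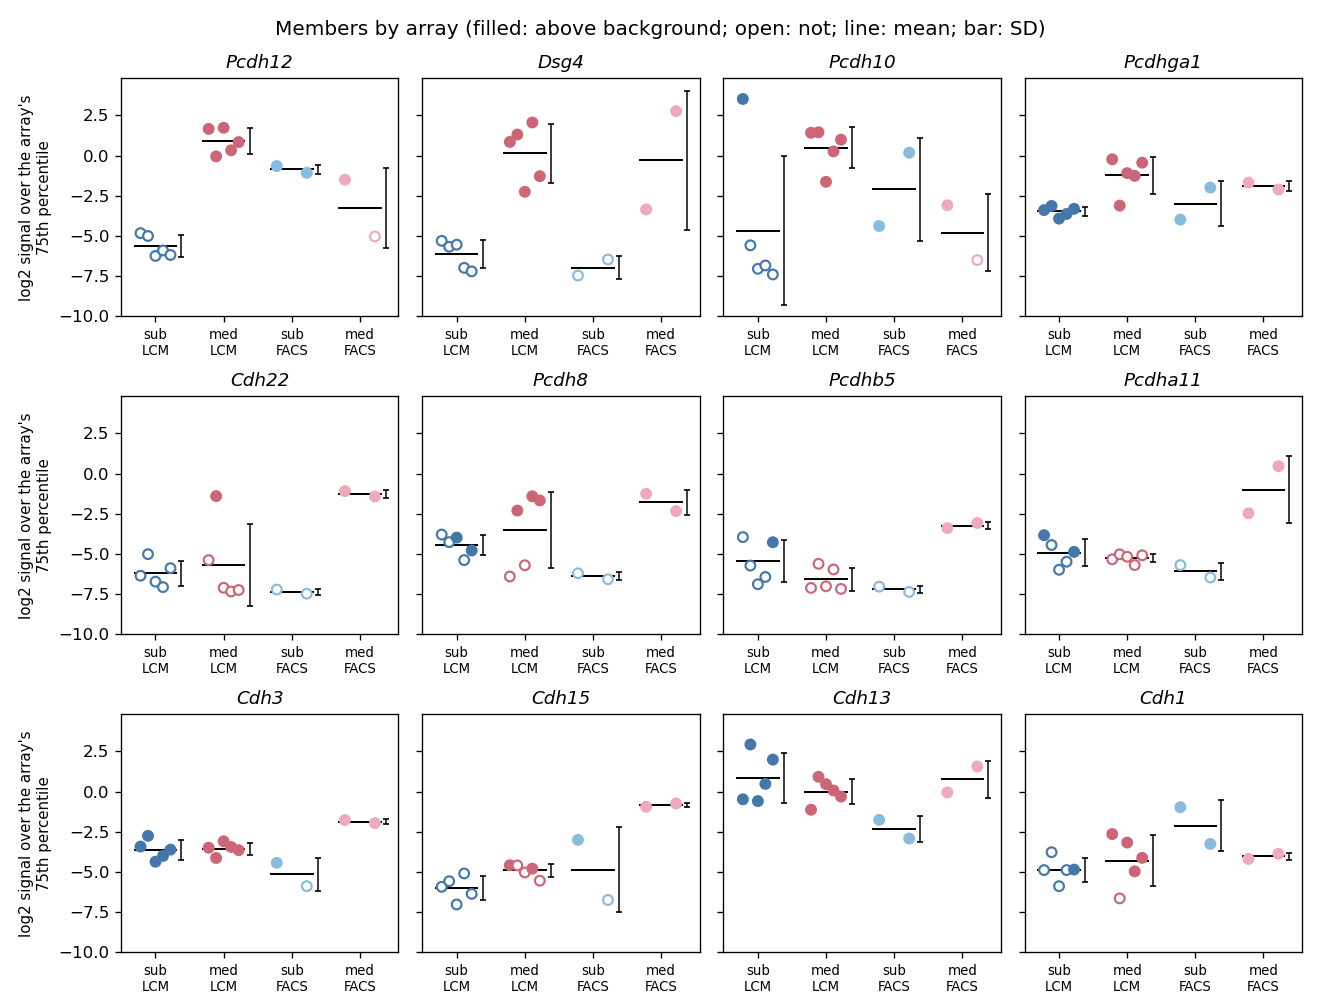
Level of 12 members on every array (y axis, log2 signal over the array's 75th percentile) by group, where sub and med are the subcapsular and medullary sinus; filled points are above background, open points are not, lines are group means and bars 1 SD (n = 5 in LCM, n = 2 in FACS). Pcdh12 was open on all 5 subcapsular LCM arrays and filled on all 5 medullary ones, and Pcdh10 shows the single high subcapsular sample at 3.52.

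Sorted cells were compared with the same question. No member of 50 was called, nor was any of 27662 genes (0%), while 15 members had an unadjusted p under 0.05, all higher in the medullary samples, where 18.2% of all genes did so in that direction. The medullary pair alone admitted 21 of the 50, and all 21 were positive, as were 98.3% of all genes that entered that way. With 2 samples per sinus, 32 members lay wholly higher in the medullary pair and 3 wholly lower, where 43% and 26.7% of all genes did. Of the 25 members that both sinuses admitted, 22 were positive with a median of 1.09, where 61.6% of such genes were positive with a median of 0.72. With trend and robust eBayes 3 members and 1813 of the 27662 genes were called. In a single fit of all 14 arrays 12 members and 4414 genes were called, the members all higher and the genes 2570 higher and 1844 lower. All of those 12 members but Cdh13 had entered through the medullary pair alone, so the filter favoured their direction.

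The 5 members with the lowest p in FACS all entered through the medullary pair alone, so their detection there was a condition of entry. Cdh22, a cadherin best known from brain, read −7.21 and −7.47 in the subcapsular pair and −1.09 and −1.42 in the medullary pair. The subcapsular values were below background, which puts the medullary level at 18.7-fold or more above them (6.09 ± 0.57, SE, limma adjusted p = 0.0645). Pcdh8, a protocadherin of synapses and of the embryonic mesoderm, read −6.2 and −6.57 against −1.25 and −2.33, or at least 13-fold higher (4.6 ± 0.68, SE, limma adjusted p = 0.0725). Cdh3 (P-cadherin), a classical cadherin of basal epithelia, read −4.43 and −5.88 against −1.77 and −1.96, a difference of 3.29 ± 0.76 (SE, limma adjusted p = 0.105). The pairs did not overlap in these 3 genes. Pcdhb5 and Pcdhac2, a beta and an alpha protocadherin, differed by 3.97 and 4.18 (limma adjusted p = 0.0708 and 0.0863).

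Most desmosomal cadherins were also higher in the medullary pair in value, and none was called. Dsg1b differed by 5.7, Dsg1c by 3.92, Dsc2 by 4.32, Dsc3 by 2.41 and Dsc1 by 1.83, with limma adjusted p from 0.145 to 0.315. Dsg3 differed by 1.75 (limma adjusted p = 0.434), and Dsg2, the most widespread desmoglein, by −1.32. The other Dsg2 probes differed by −0.71 and 4.2 in FACS. Dsg1b, Dsg1c, Dsc2 and Dsc3 entered through the medullary pair alone, and 98.3% of all genes entering that way were positive. The median over all genes in FACS was 0.74. Dsg1a, Dsg1b and Dsg1c are near-identical copies, so their signals are uncertain as to gene. Of 14 keratinocyte and other epithelial markers, all 14 were above background on both medullary FACS arrays and 12 or 13 on the subcapsular ones. Of the 14, 11 were positive and 3 negative (Epcam −4.24, Krt18 −1.56 and Krt8 −0.16). Their summed level was 8.64 and 8.65 against 7.55 to 7.92, most of it from Trp63 (8.57 and 8.47 against 7.38 and 7.82), and Krt1 was above background on no subcapsular FACS array. The 8 lymphatic endothelial markers had a summed level of 0.43 to 0.92 on the medullary and 4.11 to 5.32 on the subcapsular FACS arrays. That sum follows Pecam1 (−3.36 and −3.83 against 3.97 and 5.27), and of the 6 that entered, Pdpn, Prox1 and Reln were positive (4.33, 1.94 and 1.88). The part of either list in these differences, and in those of Cdh22, Pcdh8 and Cdh3, was not tested.

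Cdh1 (E-cadherin), the main cadherin of simple epithelia, read −0.97 and −3.25 in subcapsular FACS against −4.19 and −3.87 in medullary FACS, a difference of −1.92 (limma adjusted p = 0.237). Cdh13 (T-cadherin), which is held to the membrane by a lipid anchor, read −1.76 and −2.92 against −0.05 and 1.56, a difference of 3.09 (adjusted p = 0.129). In LCM the same Cdh13 probe differed by −0.87, and its other probe by 0.27 in LCM and 0.54 in FACS. Both Cdh13 probes were above background on all 14 arrays.

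Of the 42 members that entered both sinus comparisons, 27 were positive in both and 0 negative in both, a count that the filter favoured. Of the 23 that both sinuses admitted in both isolations, 15 were positive in both (65.2%, against 30.9% of 18140 such genes) and 0 negative in both (24.2% of such genes). The LCM signs depend on the scaling, as given above. Cdh1, Dsg2, Pcdh10, Pcdh12, Pcdha9 and Pcdhga9 were positive in LCM and negative in FACS. The other 9 were negative in LCM and positive in FACS: Cdh2, Cdh13, Cdh17, Cdh20, Dsc1, Dsc3, Dsg1b, Pcdh20 and Pcdhb12. Many of these differences are smaller than their errors.

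**Figure D4:**
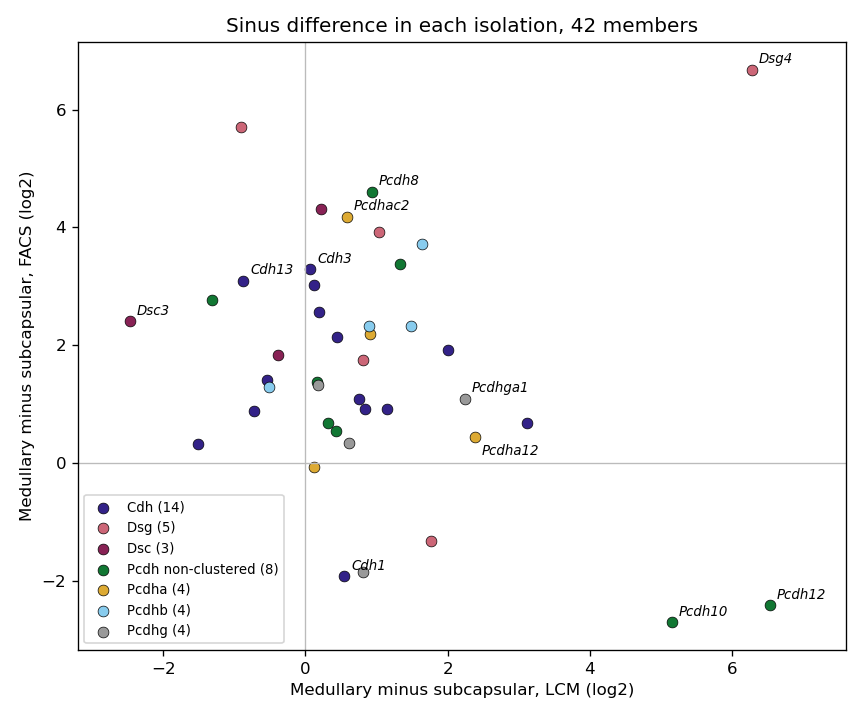
Medullary minus subcapsular difference (log2) in LCM (x axis) and in FACS (y axis) for the 42 members that entered both comparisons, coloured by subfamily with the number of points in the legend. Dsg4 lies at 6.28 and 6.67, Pcdh12 at 6.53 and −2.41, and no point is below 0 on both axes.

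Whether the sinus difference itself differed between isolations was tested as an interaction, the FACS difference minus the LCM difference. It was called for 3 of 59 members (1.3% of 29689 genes). At an unadjusted p under 0.05, 15 members were higher and 2 lower, where 12.6% and 8.67% of all genes were. Pcdh12 had an interaction of −8.94 ± 1.23 (SE, limma adjusted p = 0.00667). In FACS it read −0.65 and −1.07 in the subcapsular pair and −1.5 and −5.03 in the medullary pair, so its order there was opposite to that in LCM, without a call in FACS alone (−2.41, adjusted p = 0.271). Pcdh12 entered through the medullary arrays alone in LCM and the subcapsular pair alone in FACS, which favours these signs. Of all genes that entered those ways, 90% were positive in LCM and 7.4% in FACS. The interaction call of Pcdh12 ended without subcapsular FACS replicate 7 (−9.15, adjusted p = 0.0608).

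The other 2 called interactions were positive. Pcdha11, an alpha protocadherin, read −5.69 and −6.46 in subcapsular FACS and −2.47 and 0.46 in medullary FACS, and was above background on 2 of 10 LCM arrays. Its interaction was 5.41 ± 1.09 (SE, limma adjusted p = 0.0339). Pcdhb5 read −7.03 and −7.36 in subcapsular FACS and −3.39 and −3.07 in medullary FACS, and was above background on 1 of 10 LCM arrays. Its interaction was 5.09 ± 1.04 (SE, limma adjusted p = 0.0351). Both entered through the medullary FACS pair alone, where they are high. Most of the LCM values behind both lie below background, so these sizes are not bounds. With slide as a block they were 5.32 and 5.09, with row as a block 5.31 and 4.74, and without array weights 5.41 and 5.09, and none of these was called. Normexp also ended both calls (2.77, adjusted p = 0.0527, and 1.63, 0.0759), and quantile normalization, the deposited values, the other percentile and no filter ended that of Pcdhb5 (0.0529 to 0.0765). Without subcapsular FACS replicate 7 the adjusted p was 0.2 and 0.21, without subcapsular FACS replicate 6 it was 0.0933 and 0.125, and without medullary LCM replicates 1, 3 or 5 neither was called (0.0536 to 0.0599). Pcdha11 also lost its call without medullary LCM replicate 2 (0.0546) or 4 (0.0556) or subcapsular LCM replicate 1 (0.0502). Next by p came Cdh3 (3.22, adjusted p = 0.0678) and Cdh22 (5.58, 0.0974), neither called.

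Between isolations, 1 of 59 members was called, and it was higher in FACS (3.84% of all genes were called, 1.82% higher and 2.03% lower). At an unadjusted p under 0.05, 5 members were higher and 2 lower, where 9.42% and 6.59% of all genes were. The median over members was 0.02, with 30 of 59 positive, against 0.17 over all genes. Cdh15 (M-cadherin), the cadherin of muscle precursors, read −5.09 to −7.02 in the 5 subcapsular and −4.58 to −5.54 in the 5 medullary LCM samples. In FACS it read −3 and −6.74 in the subcapsular and −0.94 and −0.74 in the medullary pair, so only subcapsular FACS replicate 7 fell among the LCM values. It was above background on 2 of 10 LCM and 3 of 4 FACS arrays, and entered through the medullary FACS pair alone. The difference was 2.59 ± 0.61 (SE, limma adjusted p = 0.0318). It was 4.32 between the medullary arrays of slide 2 (adjusted p = 0.14) 2.94 with slide as a block (0.312), 2.58 with row as a block (0.0644) and 0.78 with normexp (0.154), none called. Without subcapsular FACS replicate 6 it was 1.66 (0.131). Without any 1 of subcapsular LCM replicates 3 and 5, medullary LCM replicates 2 to 5 and medullary FACS replicates 6 and 7 it lay between 2.46 and 2.64 and was not called (0.0506 to 0.0759).

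The next members by p were not called. Pcdh17, a non-clustered protocadherin, differed by −3.88, Dsg3 by 2.09, Pcdha11 by 1.55 and Cdh1 by 1.51 (limma adjusted p from 0.134 to 0.269). Cdh5, which is no member, fell by 2.94 in FACS (limma adjusted p = 0.0162), with both medullary FACS values below background. Of 9 salivary gland genes, 7 were higher in FACS and 2 lower (Smr2 −1.14 and Prlr −0.43), where 57.3% of all genes were higher. Of the 9, 4 were called, all higher, where 1.82% of all genes were. Their summed level was 7.16 to 10.26 in FACS and −0.44 to 4.95 in LCM. The part of the salivary gland genes in the values of Cdh15 and Cdh1 was not tested.

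The 18 members above background on every array allow comparisons free of that bound, and none of them was called in any comparison. In LCM their differences ran from −1.51 to 2.39 with 13 of 18 positive, and in FACS from −1.84 to 3.09 with 16 of 18 positive. Of all genes that both sinuses admitted, 45.6% were positive in LCM and 61.6% in FACS. That base is wider than the genes above background on all 14 arrays, so it is not a like comparison, and the LCM signs depend on the scaling. On its representative probe Pcdh15, a component of hair cell tip links, varied least, from −0.98 to 0.45 over the 14 arrays. Between isolations that probe differed by −0.06, while other Pcdh15 probes above background on all 14 arrays differed by −2.89 and −1.7. Pcdhb12, Pcdhgc5, Pcdh1, Cdh17, Cdh2 and Cdh26 followed, with spans of 2.25 to 2.87 between their lowest and highest arrays. Pcdhga1, Cdh24, Pcdhgb1, Cdh18, Pcdha12, Cdh8, Cdh13, Cdh20, Dsg2 and Pcdhga9 spanned 3.75 to 7.4. Pcdha8 spanned most, from −3.76 to 4.97, and both of those values came from subcapsular LCM samples.

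Among the other members fixed for description, no difference between sinuses was called. Cdh2 (N-cadherin), found in mesenchymal, neural and endothelial cells, differed by −0.54 in LCM and 1.42 in FACS (limma adjusted p = 0.772 and 0.182). Cdh11, a cadherin of mesenchymal cells, differed by 2 and 1.92 (0.548 and 0.288), Pcdh7 by 1.33 and 3.38 (0.685 and 0.126), and Pcdh1 by 0.32 and 0.68 (0.871 and 0.415). The other Cdh11 probe differed by 0.03 in LCM and −0.73 in FACS. Dsc2 differed by 0.22 in LCM (0.96). Cdh3 differed by 0.07 there (0.97) and was above background on all 10 LCM arrays.

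Of the 78 members, 47 lie on chromosome 18, which holds the desmosomal cadherins and the clustered protocadherins. The latter lie in 1 stretch, and detection differed from gene to gene along it. Pcdha8, Pcdha12, Pcdhb12, Pcdhga1, Pcdhgb1, Pcdhgc5 and Pcdhga9 were above background on 14 arrays, while neighbours such as Pcdhb13 (1 array) and Pcdha11 (4 arrays) were not. In background, alpha and gamma transcripts join a variable exon to constant exons shared by their cluster. The Pcdhga9 probe lies 885 kb from the first alpha probe, beyond that of Pcdhgc5 at 864.5 kb, and so at the shared end of the gamma cluster. It may thus read several gamma transcripts. Pcdhac2 is likewise read at the far end of the alpha cluster. Of the 11 measured regulators of clustered protocadherins, which include the insulator protein gene Ctcf and cohesin genes, all 11 were negative in FACS (median −2.1, against 0.74 for all genes) and none was called. The lowest p there belonged to the histone methyltransferase gene Setdb1 (−5.61, limma adjusted p = 0.0645) and the cohesin loader gene Nipbl (−6.13, 0.0761). Setdb1, Nipbl, Stag2 and Smc3 entered through the subcapsular FACS pair alone, and only 7.4% of all genes entering that way were positive. In LCM, 6 of the 10 regulators that entered were positive, with a median of 0.56.

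**Figure D5:**
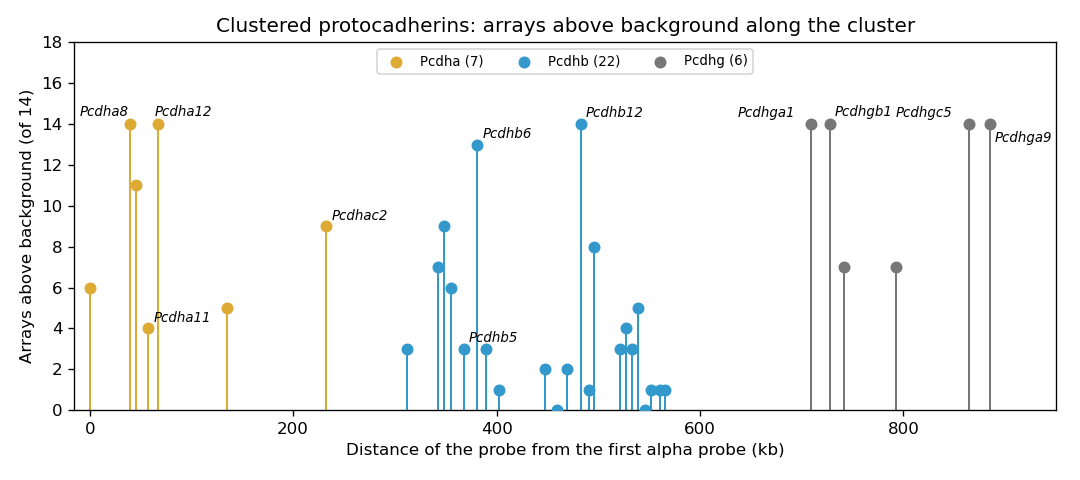
Number of arrays (y axis, of 14) on which each of the 35 clustered protocadherin probes was above background, against its distance in kb from the first alpha probe (x axis). Most beta probes stand at 9 arrays or fewer, with Pcdhb6 at 13 and Pcdhb12 at 14, and 4 of 6 gamma probes stand at 14.

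Several members had more than 1 probe, and the probes often disagreed. Of 21 such members, 6 had the same sign on all probes in LCM, 14 in FACS and 9 between isolations. Pcdh10 read 5.16 on its representative probe and −0.31 on the other in LCM, and −2.7 and 4.11 in FACS. Cdh2 read −0.54 and 2.06 in LCM on probes that were both above background on all 14 arrays.

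Partners of the cadherins were mostly not called. Of 12 catenin and adherens junction genes that entered, 7 were positive in LCM (median 0.29) and 4 of 11 in FACS (median −0.59), with 0 called. The lowest p in FACS belonged to the phosphatase gene Ptpn1 (−7.65, limma adjusted p = 0.0645), below background on both medullary arrays, and to the alpha-catenin gene Ctnna1 (−3.99, 0.129). Ptpn1 entered FACS through the subcapsular pair alone, and only 7.4% of all genes entering that way were positive. Of the desmosomal plaque genes, 5 entered in LCM, 2 of them positive and 3 negative (median −0.35). In FACS 7 entered, 4 of them positive and 3 negative (median 1.52). Perp, a desmosomal membrane protein gene, rose in medullary LCM by 5 ± 0.74 (SE, limma adjusted p = 0.0307). The medullary arrays alone let Perp in, as all 5 of them showed it against 1 of 5 subcapsular arrays, which favours a positive sign. In limma Pkp1, a plakophilin, had a called interaction of 5.82 (adjusted p = 0.0259), being above background on the 2 medullary FACS arrays alone. Pkp1 thus entered through that pair alone, which favours a positive sign, as 98.3% of all genes entering that way were positive in FACS. Of 15 other cadherin superfamily genes compared between isolations, Fat4 fell in FACS by 3.3 on the log2 scale (limma adjusted p = 0.0353). Of 9 repressors and sheddases of cadherins, the protease gene Adam17 rose by 3.34 (adjusted p = 0.0418).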

How the data were processed

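Per the file headers, Feature Extraction 10.7.3.1 wrote the authors' scanner files, which hold background-adjusted spot intensity in arbitrary units, unscaled between arrays, with other columns of 0 or 1 flags. A second, deposited table holds log2 values with a median of 5.43 on each of the 14 arrays, and how it was made is not given in the sources used here. SuperAmp amplification of 50 or 1200 cells precedes every value, per the labels' protocols, and can drop or exaggerate rare transcripts.

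From the log2 of each intensity, that array's 75th percentile was subtracted. Spots marked as outliers were left out and repeated spots averaged. A gene entered when above background on 3 of 5 LCM arrays or 2 of 2 FACS arrays of a sinus. Genes kept the file's name; all 112 member probes' symbols stand in RefSeq's table. Fits used limma 3.58.1 in R 4.3.3 (lmFit, eBayes), Benjamini-Hochberg over all genes, calls at 0.05, and array weights by isolation over 14 arrays. Figures used matplotlib under Python.

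Tested on simulated data, the fits over 14 arrays called more unchanged genes than the threshold of 0.05 allows, under either way of drawing the spread between samples. A second, smoothed spread was added after the first had given many such calls. Interaction and isolation calls should be read with that excess in mind.

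The members, lists and tests were chosen with earlier results of these data known. Named members were those with the lowest p in each comparison (called ones, filled to 5), those above background on 14 arrays, and a fixed list, of which Pcdhgc3 is not analysed here. Alternatives were other background corrections, scalings, filters, probe rules, fits, batch blocks and leaving out each sample. For folds written "at least", each array of a group below background was given the higher of its own probe signal and its dimmest signal above background. Same-numbered samples did not deviate together (correlations −0.02 to 0.02), so the numbers were not used as pairs.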

Additional observations from a re-analysis of the deposited data

Results flagged for a closer look

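Pcdh12, Pcdha11 and Pcdhb5 had sinus differences that differed between isolations, with interactions of −8.94, 5.41 and 5.09. Single samples stood far from the other 4 of their group in 5 of 68 groups examined over the named members (7.4%, where chance gives about 1 in 20). Cdh11 read −7.12 in subcapsular LCM replicate 5 against −3.12 to −1.59 in the others. Cdh18 read 0.52 in subcapsular LCM replicate 2 against −3.65 to −2.99. Pcdh10 read 3.52 in subcapsular LCM replicate 1 against −7.39 to −5.58. Cdh24 read 1.16 in medullary LCM replicate 1 against −2.29 to −1.57, and Pcdhgb1 read 0.58 in medullary LCM replicate 3 against −2.96 to −2.39. The 5 values came from 5 different samples.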

How the results depend on the processing

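The count of 2 members called in LCM became 0 with normexp, 1 after quantile normalization, 1 with the deposited log2 values, 1 with the mean of a gene's probes, 1 with all 14 arrays in 1 fit, 1 with row as a block, and 1 to 3 without single samples. In FACS, where 0 were called, a single fit over all 14 arrays gave 12 members (4414 of all 27662 genes), trended and robust eBayes gave 3 (1813 genes), and leaving out single samples gave 0 each time. The 3 interactions became 1 without array weights, with slide as a block and with row as a block, and 0 to 4 without single samples, with 0 without subcapsular FACS replicate 7. The 1 isolation call became 0 with normexp, slide as a block, row as a block and the medullary arrays of slide 2, and 0 to 2 without single samples. The last 3 of these settings, and both blocks for the interaction, were chosen after seeing the data. With the replicate block the counts were 0 in LCM, 0 in FACS and 0 for the interaction, and Pcdh12 in LCM had a limma adjusted p of 0.162. The block could not be fitted between isolations. The labels do not say whether same-numbered samples share animals, so whether the numbers pair the samples is unknown. The cause of these changes was not tested.

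Over 1372 alternative values of the members named by p in a comparison and of the fixed list, 1243 kept direction and side of the threshold, 54 lost a call, 19 gained one and 56 changed sign, all of them in uncalled values. In LCM, with normexp, quantile normalization and the deposited values in turn, Cdh1 was −0.1, −0.25 and −0.27, Cdh3 −0.2, −0.9 and −0.89, and Dsc2 −0.37, −0.56 and −0.52 (−0.73 with row as a block), Pcdh7 was −0.05 with normexp, and Cdh2 was 0.19 with the percentile over probes above background everywhere and 0.76 with the mean of probes. In FACS, Dsg2 was 0.72 with the mean of probes. The Cdh11 interaction was 0.26, 0.31 and 0.3 under those 3 settings, 0.29 with slide and 1.39 with row as a block. The Dsg4 interaction was −0.68 (quantile), −0.63 (deposited values) and −0.23 with the other percentile, where that of Pcdh1 was −0.26. Between isolations, Pcdh12 was −0.46, −0.43 and −0.4 under the 3 settings and −3.85 on the medullary arrays of slide 2, Cdh3 −0.32 (quantile) and −0.32 (deposited values), Cdh2 −0.1 with the mean of probes, Cdh13 0.87 on those slide 2 arrays, and Pcdh7 1.51 with slide as a block and 2.08 on those arrays. Without single samples, 38 of the 131 ranges of named members crossed 0. Those of the fixed list were, for interactions, −1.17 to 1 (Cdh11) and −2.67 to 3.45 (Dsg4), for LCM, −0.11 to 0.29 (Cdh3) and −0.57 to 0.97 (Dsc2), for FACS, −2.7 to 0.05 (Dsg2), and between isolations, −0.28 to 0.44 (Cdh3), −0.39 to 1.59 (Dsc2), −2.16 to 0.9 (Dsg4), −0.58 to 1.18 (Pcdh12) and −0.77 to 0.09 (Pcdh7). Members near background limit these comparisons: 19 of 78 entered none, and a level below background is a bound only. Fits over 14 arrays overstated calls on simulated data.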
